A study of Rattus norvegicus with 20 samples.

Results

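Peptide hormones are made as inactive precursors that are cut and trimmed inside secretory granules, and 9 genes for the enzymes of these steps were followed here across ageing and dehydration (DH) in the rat supraoptic nucleus (SON). The genes were taken by name, as the proprotein convertases Pcsk1, Pcsk2, Pcsk5, Pcsk7 and Furin, the carboxypeptidases Cpe and Cpd, the amidating enzyme Pam and the glutaminyl cyclase Qpct. They are 9 of the 32402 genes in the tables, and all 9 were abundant enough to be tested in every comparison. The libraries were poly(A) RNA from bilateral punches of the SON of male Wistar Han rats, with 5 rats in each of 4 groups. Adult rats were 3 months old and aged rats 18 months old, and rats of both ages were either euhydrated (EH), with free access to water, or DH. The sample labels give DH as 2 days without water, whereas the methods of the study give a longer period. A protocol text that all samples share describes rats of the older age that were then dehydrated, which goes against the adult and EH groups, so groups were taken from each sample's own age and treatment entries. The labels name no transgene or drug. Replicates are numbered as in the labels.

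The SON holds the magnocellular neurons (MCNs), large neurosecretory cells that send vasopressin and oxytocin to the posterior pituitary for release into the blood. Both hormones start as precursors with the hormone at one end and its carrier protein, neurophysin, behind it. Convertases cut the precursor after pairs of basic residues, carboxypeptidase E removes the basic residues left at the new end, and Pam turns an exposed glycine into the terminal amide that both hormones need for full activity. Pcsk1 and Pcsk2 work in the granules, whereas furin and Pcsk7 act earlier, in the trans-Golgi network, and Cpd trims chains there. Qpct closes an amino-terminal glutamine into a pyroglutamate ring, which vasopressin and oxytocin do not carry.

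A punch also holds glia, vessels and some neighbouring tissue, so fewer cells of a type and less RNA per cell cannot be told apart. Avp and Oxt, the defining MCN genes, summed to between 193899 and 473621 normalized counts in the 20 rats. Adult libraries held 24268398 to 28491926 reads on genes, and whole reads were not recovered for aged libraries. Markers of glutamatergic neurons of the neighbouring forebrain summed to 849 to 1598 in aged DH and 1665 to 4045 in aged EH, without overlap, and 3 of the 5 (Slc17a7, Neurod6 and Neurod2) were called lower. The defining marker Neurod6 had a log2 fold change (LFC) of -2.49 there. Between aged EH and adult EH rats, the oligodendrocyte marker Mog (LFC -0.36) and 2 of 5 astrocyte markers (Aqp4 and Gja1) were called lower and 2 of 4 microglial markers (Cx3cr1 and P2ry12) higher. The astrocyte sum was 103186 to 126179 in aged EH and 109678 to 135144 in adult EH, and the microglial sum 4844 to 5808 and 4371 to 4805. In adult DH against adult EH no glial, endothelial or forebrain marker was called. All 5 astrocyte, 4 microglial and 4 oligodendrocyte markers were nevertheless lower there, and the 2 endothelial markers higher. The microglial sum was 3887 to 4240 in adult DH and 4193 to 4601 in adult EH. The part of these markers in the results below was not tested.

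The RefSeq promoter table, on the GRCr8 assembly, matched 6 of the 9 genes, namely Pcsk2, Pcsk5, Pcsk7, Cpe, Pam and Qpct. The 250 bases before the listed start are shown for Pcsk2 and Pam, which were called in all 3 comparisons below, and for Cpe, which was called in none. Capitals mark the half-site of the cAMP response element, TGACG or its complement CGTCA, searched on both strands. The lines run 5′ to 3′ on the gene's strand, for Pcsk2 at chr3:151333688-151333937, for Pam at chr9:105570118-105570367 and for Cpe at chr16:29796457-29796706, all on the plus strand.
Pcsk2: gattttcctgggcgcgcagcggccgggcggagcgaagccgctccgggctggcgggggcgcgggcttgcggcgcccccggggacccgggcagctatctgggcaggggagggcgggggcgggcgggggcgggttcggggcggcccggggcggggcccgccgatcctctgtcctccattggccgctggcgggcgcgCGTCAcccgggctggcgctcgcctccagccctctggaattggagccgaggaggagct
Pam: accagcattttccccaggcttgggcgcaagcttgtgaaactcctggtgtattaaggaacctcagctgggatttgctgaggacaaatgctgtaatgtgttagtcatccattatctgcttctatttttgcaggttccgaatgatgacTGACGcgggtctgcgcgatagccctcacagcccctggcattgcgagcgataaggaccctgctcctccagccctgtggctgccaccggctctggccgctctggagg
Cpe: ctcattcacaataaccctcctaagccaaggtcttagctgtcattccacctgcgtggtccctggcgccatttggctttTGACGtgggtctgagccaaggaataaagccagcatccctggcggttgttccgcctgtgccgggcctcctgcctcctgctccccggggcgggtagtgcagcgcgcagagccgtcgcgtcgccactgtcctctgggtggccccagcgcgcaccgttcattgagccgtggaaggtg
Each of these windows holds a single half-site, which opens at position -57 in Pcsk2 (as CGTCA), -105 in Pam and -173 in Cpe, counted from the listed start. The windows of Pcsk5, Pcsk7 and Qpct hold none, and 18.2% of the 33469 promoters in the table hold at least 1. The full element TGACGTCA, which contains the half-site, occurs in 1.59% of all promoters and the AP-1 element TGANTCA in 6.34%, and neither occurs in any of the 6 windows. The annotated span of Pam opens at base 105445812, upstream of the listed start, so its window lies within the gene. A match of letters is a description of the sequence and does not show that a factor binds there.

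In adult rats, DH was accompanied by higher expression of 4 of the 9 genes. Pcsk1 and Pam changed most, by 1.70-fold and 1.55-fold, Pcsk5 rose 1.25-fold and Pcsk2 only 1.09-fold. No gene was called lower. Across all 15280 genes tested in this comparison limma called 12.7%, counted in both directions at a Benjamini-Hochberg adjusted threshold of 0.05. The median LFC of the 9 genes was 0.13, beside -0.01 for all genes tested.

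Pcsk1 (ENSRNOG00000011107) encodes prohormone convertase 1/3, which starts the cleavage of many precursors. Its normalized counts, the authors' reads divided by a size factor for each library, were 1309, 921, 1308, 1157 and 1231 in adult EH rats 1, 2, 4, 5 and 6, and 1960, 1869, 1983, 2037 and 2148 in adult DH rats 1 to 5. All DH rats lay above all EH rats, and EH replicate 2 was the lowest of the 10. The LFC was 0.76 (SE 0.0814; limma adjusted p = 4.07e-05).

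Pam (ENSRNOG00000033280) encodes peptidylglycine alpha-amidating monooxygenase, a copper enzyme. It stood at 19604, 17330, 20077, 20070 and 19677 normalized counts in adult EH and at 28490, 28925, 31822, 29511 and 30749 in adult DH. The groups were far apart, with the spread within each small beside the gap between them. Its LFC of 0.63 (SE 0.0439; limma adjusted p = 1.07e-06) carried the lowest adjusted p of the 9 genes.

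Pcsk2 (ENSRNOG00000005438) encodes prohormone convertase 2, the second granule convertase. Its normalized counts were 4500, 4538, 4500, 4460 and 4267 in adult EH and 4804, 4675, 5001, 4728 and 5168 in adult DH. The groups did not overlap, though the highest EH and lowest DH rats were close. The LFC was 0.13 (SE 0.0328; limma adjusted p = 0.0196), and without adult DH replicate 3 the adjusted p was 0.0505.

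Pcsk5 (ENSRNOG00000012036) encodes convertase 5/6, which acts on growth factor and peptide precursors. It had 479, 595, 566, 538 and 565 normalized counts in adult EH and 697, 652, 657, 642 and 769 in adult DH, again without overlap. The LFC was 0.32 (SE 0.0664; limma adjusted p = 0.00697).

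The 5 other genes were not called in adult DH. Pcsk7 ran from 592 to 657 normalized counts in EH and from 663 to 705 in DH, a narrow gap without overlap (LFC 0.12, limma adjusted p = 0.109). Furin overlapped, at 1136 to 1223 in EH and 1195 to 1376 in DH (LFC 0.11, limma adjusted p = 0.104). Cpe ran from 34191 to 36788 in EH and from 34343 to 37898 in DH. Its LFC was 0.02, with a 95% interval from -0.05 to 0.09. The interval for Cpd was wider, from -0.17 to 0.14. Qpct had an LFC of 0.21 with an interval from -0.06 to 0.48.

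**Figure D1:**
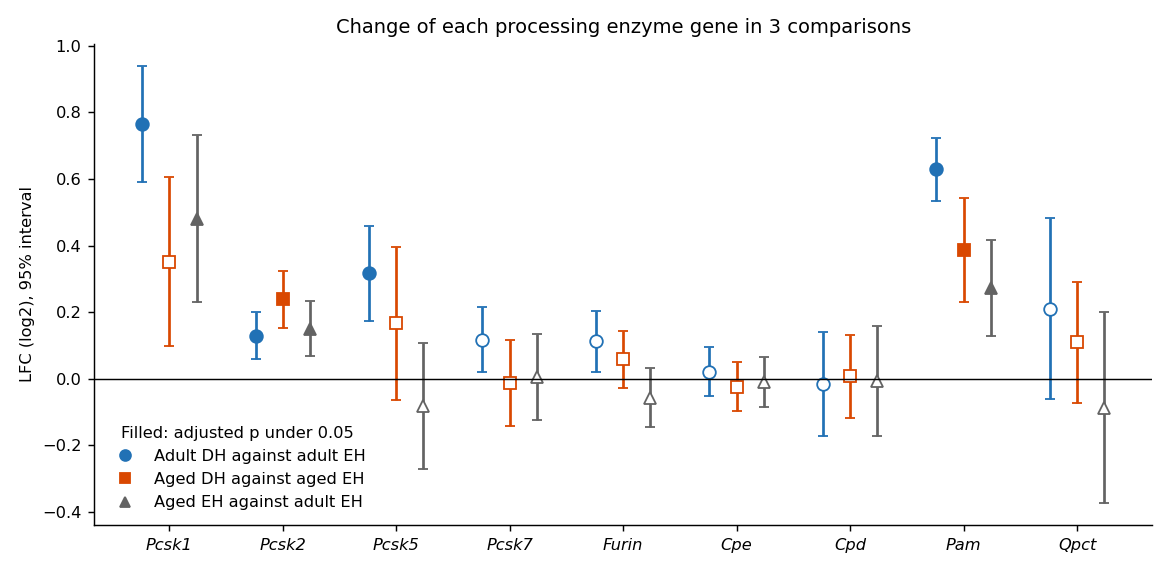
LFC (log2, vertical axis) of the 9 genes in adult DH against adult EH (circles), aged DH against aged EH (squares) and aged EH against adult EH (triangles), with 95% intervals from limma and filled symbols for an adjusted p under 0.05. Pcsk1 and Pam lie highest in adult DH, at 0.76 and 0.63, while Cpe and Cpd lie near 0 in all 3.

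In aged rats 2 of the 9 genes, Pcsk2 and Pam, were called with DH, both higher. Here limma called 7.29% of the 15346 genes tested. The median LFC of the 9 genes was 0.11, and that of all genes tested was 0.00.

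Pcsk2 measured 5147, 5111, 5549, 5201 and 4733 normalized counts in aged EH rats 1, 2, 4, 5 and 6, and 6036, 5912, 6337, 6100 and 5960 in aged DH rats 1, 2, 3, 5 and 6. No DH rat reached down to the highest EH rat, replicate 4. The LFC was 0.24 (SE 0.04; limma adjusted p = 0.00274), or 1.18-fold.

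Pam measured 23386, 24603, 28707, 24374 and 20936 in aged EH and 30105, 30802, 35864, 32916 and 29408 in aged DH. The groups did not overlap, but EH replicate 4 came close to DH replicate 6. The LFC was 0.39 (SE 0.073; limma adjusted p = 0.00559), a 1.31-fold change.

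Pcsk1 measured 1691, 1777, 2197, 1662 and 1322 in aged EH and 2226, 1821, 2470, 2552 and 1925 in aged DH. Its groups overlapped, since EH replicate 4 lay above DH replicates 2 and 6. The LFC of 0.35 (SE 0.118) had a limma adjusted p of 0.0895, which fell to 0.0208 without aged EH replicate 4. Pcsk5 overlapped as well, at 439 to 614 in EH and 516 to 714 in DH (LFC 0.17, limma adjusted p = 0.408). The LFCs of Pcsk7, Furin, Cpe, Cpd and Qpct ran from -0.02 for Cpe to 0.11 for Qpct, and none was called. The 95% interval for Cpe was from -0.10 to 0.05.

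Ageing was examined in EH rats alone, and 3 of the 9 genes, Pcsk1, Pam and Pcsk2, were called, all higher in aged EH. In this comparison limma called 5.99% of 15369 genes. The median LFC of the 9 genes was -0.01, against 0.00 over all genes. The adult EH and aged EH rats here are also the controls of the 2 DH comparisons, so values for a gene in the 3 comparisons are not independent of each other.

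In the ageing table Pcsk1 had 1364, 958, 1366, 1206 and 1284 normalized counts in adult EH and 1694, 1780, 2197, 1663 and 1330 in aged EH. Only aged EH replicate 6 fell within the adult range. The LFC was 0.48 (SE 0.117; limma adjusted p = 0.0291), a 1.40-fold difference. Pam had 20430, 18036, 20965, 20922 and 20512 in adult EH and 23421, 24639, 28715, 24396 and 21070 in aged EH. Its groups did not overlap, with aged replicate 6 just above the highest adult rat (LFC 0.27, SE 0.0675, limma adjusted p = 0.0314). Pcsk2 had 4689, 4723, 4699, 4650 and 4448 in adult EH and 5155, 5119, 5550, 5206 and 4763 in aged EH, also without overlap and with the same aged rat lowest (LFC 0.15, SE 0.0383, limma adjusted p = 0.0346).

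All 3 ageing calls lay near the threshold, and with a rat fewer their adjusted p rose to at most 0.0803. Pcsk2 kept its call without aged EH replicate 6 (limma adjusted p = 0.0102) and lost it without any other single rat. Pcsk1 lost its call without adult EH replicate 2 (0.0544) or 5 (0.063), or aged EH replicate 2 (0.0655), 4 (0.0568) or 5 (0.0541), all limma adjusted p. Pam lost its call without adult EH replicate 1 (0.0548), 2 (0.0698) or 6 (0.0547), or aged EH replicate 2 (0.0666) or 5 (0.0652). No direction turned, and the LFCs stayed between 0.39 and 0.57 for Pcsk1, 0.21 and 0.32 for Pam, and 0.12 and 0.18 for Pcsk2.

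The 6 genes not called in ageing had LFCs from -0.09 (Qpct) to 0.01 (Pcsk7). The 95% interval was from -0.08 to 0.07 for Cpe, from -0.17 to 0.16 for Cpd, from -0.15 to 0.03 for Furin and from -0.12 to 0.13 for Pcsk7. For Pcsk5 it was from -0.27 to 0.11 and for Qpct from -0.37 to 0.20.

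Whether the response to DH differed between the ages was tested over all 20 rats, as the LFC in aged rats less that in adult rats. Of the 9 genes 0 were called. This was so of all 15326 genes, of which limma called 0%, while 1522 had an unadjusted p under 0.05. A replicate block, which was added to the fit as an alternative, called 1 gene and none of the 9. The difference was -0.41 (SE 0.158) for Pcsk1, with an unadjusted p of 0.0163 and a limma adjusted p of 0.398. For Pam it was -0.24 (SE 0.0921; limma adjusted p = 0.39) and for Pcsk2 0.11 (SE 0.0516; limma adjusted p = 0.497). The 95% intervals of these differences, before any adjustment, were from -0.74 to -0.08 for Pcsk1 and from -0.43 to -0.05 for Pam.

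The tables were scaled separately, and the order of the 4 groups was therefore read after size factors were estimated anew over the 20 libraries, a step chosen after seeing the data. The mean of Pcsk1 was 1204 ± 164 normalized counts in adult EH, 1692 ± 303 in aged EH, 2030 ± 102 in adult DH and 2151 ± 316 in aged DH (SD, n = 5). The mean of Pam followed the same order, at 19653 ± 1183, 23864 ± 2703, 30360 ± 1365 and 31124 ± 2564 (SD, n = 5). The 2 DH groups overlapped in both genes. Between aged EH and adult DH, Pcsk1 overlapped, at 1296 to 2142 and 1901 to 2177, whereas Pam did not, at 20523 to 27993 and 28934 to 32301.

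Pcsk2 had another order. Its mean was 4522 ± 107 in adult EH, 4950 ± 202 in adult DH, 5035 ± 275 in aged EH and 5937 ± 162 in aged DH (SD, n = 5). Adult DH and aged EH overlapped, and all aged DH rats, from 5794 to 6197, lay above every other rat. Aged DH was then set against adult DH with limma on this scale. Pcsk2 was the 1 gene of the 9 called, with an LFC of 0.26 (SE 0.0357; limma adjusted p = 8.08e-05), where 12.4% of 15319 genes were called. Pcsk1 differed by 0.07 (95% interval -0.16 to 0.30) and Pam by 0.03 (-0.10 to 0.17). Furin was lower by an LFC of -0.11 that did not pass (limma adjusted p = 0.073), and passed without adult DH replicate 5 (0.0409).

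Among the remaining genes Pcsk5 in adult DH, at 652 to 780, lay above adult EH (487 to 604) and aged EH (430 to 601) without overlap, and overlapped aged DH (504 to 699). Mean Cpe ran from 35480 ± 558 in aged DH to 36780 ± 1486 in adult DH, and mean Cpd from 2567 ± 166 in adult DH to 2605 ± 312 in adult EH (SD, n = 5). Mean Pcsk5 ran from 530 ± 68.8 in aged EH to 694 ± 52.3 in adult DH, mean Pcsk7 from 635 ± 27.8 in aged DH to 691 ± 20.9 in adult DH, mean Furin from 1145 ± 44.8 in aged EH to 1287 ± 68.8 in adult DH and mean Qpct from 423 ± 55.5 in aged EH to 517 ± 52.8 in adult DH (SD, n = 5). For each of these 4 genes adult DH was the highest group.

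**Figure D2:**
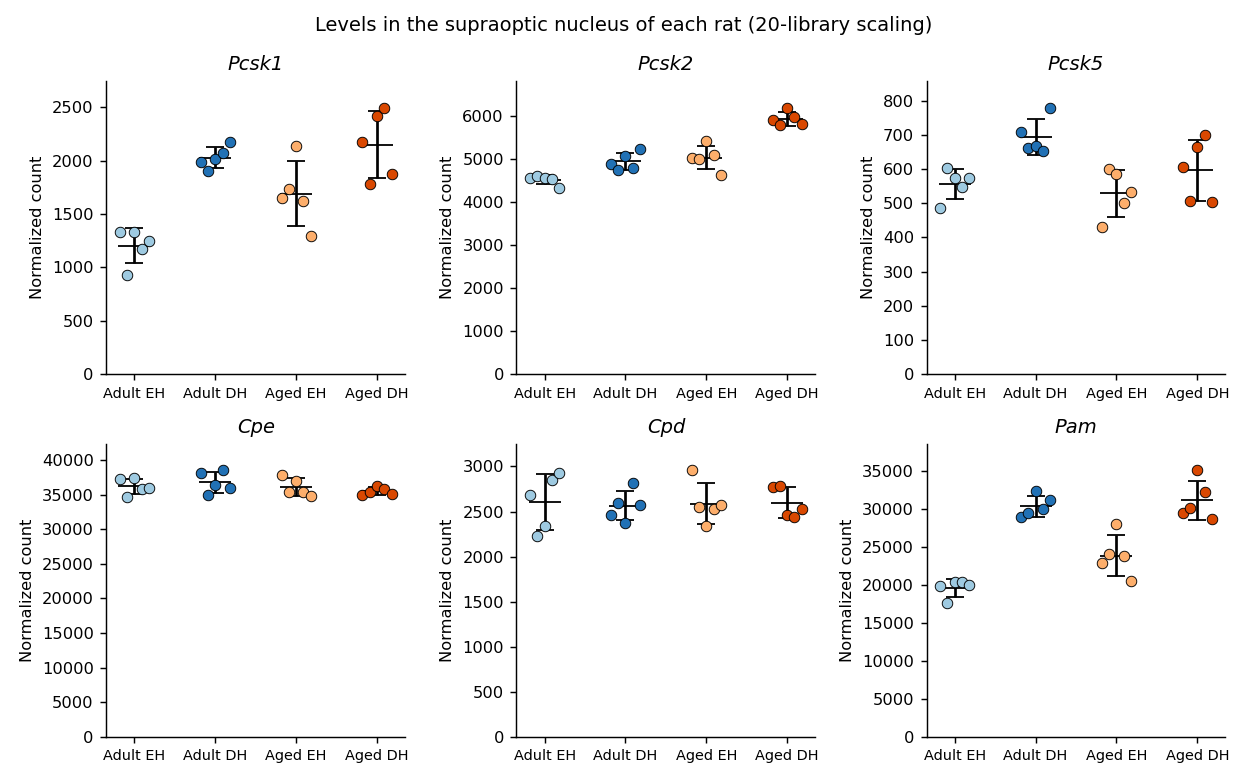
Normalized counts (vertical axis from 0, size factors over the 20 libraries) of 6 genes in each rat of the 4 groups, with the mean and SD as bars. All 5 aged DH rats lie above every other rat for Pcsk2, both DH groups lie above both EH groups for Pam, and the groups lie level for Cpe and Cpd.

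The RNA balance of the granule convertases was followed in each rat as the log2 ratio of the Pcsk1 to the Pcsk2 normalized count. Transcript length cancels in this ratio when groups are compared. The ratio is of RNA in the whole punch, and gives neither enzyme amounts nor the balance within MCNs. As a plain ratio it was 0.291, 0.203, 0.291, 0.259 and 0.289 in adult EH and 0.408, 0.40, 0.397, 0.431 and 0.416 in adult DH. The groups did not overlap, and the log2 ratio was 0.63 higher in DH (exact permutation test, two-sided, p = 0.00794, the smallest that 5 rats against 5 allow). In aged rats it was 0.329, 0.348, 0.396, 0.319 and 0.279 in EH and 0.369, 0.308, 0.39, 0.418 and 0.323 in DH, with wide overlap. The log2 difference there was 0.11 (exact permutation test, two-sided, p = 0.349). Between aged EH and adult EH it was 0.33 (exact permutation test, two-sided, p = 0.0317). With each rat left out in turn, the ageing difference was 0.24 to 0.39 and its exact p rose to 0.0635 when any of the aged EH replicates 1, 2, 4 and 5 or the adult EH replicates 2 and 5 was dropped. Whether the shift with DH differed between the ages was not tested for the ratio itself.

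**Figure D3:**
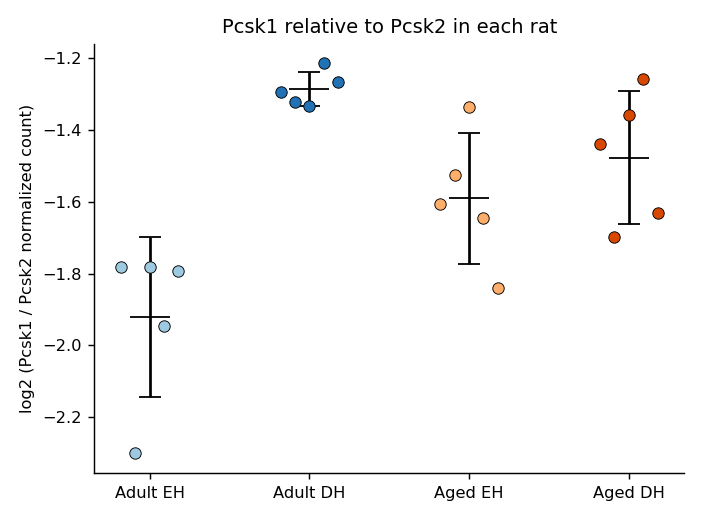
Log2 ratio of the Pcsk1 to the Pcsk2 normalized count (vertical axis) in each rat of the 4 groups, with the mean and SD as bars. Adult DH rats lie between -1.33 and -1.21, above all adult EH rats, while aged EH and aged DH rats overlap.

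Vasopressin is the main cargo of many MCNs, so each gene was also taken relative to Avp in the same rat. In adult DH Avp rose by an LFC of 0.48 (SE 0.124; limma adjusted p = 0.0221), from 163773 ± 32462 to 225427 ± 24562 normalized counts (SD, n = 5). Relative to it 2 of the 9 genes were called, Cpe at -0.46 (limma adjusted p = 0.0173) and Cpd at -0.49 (limma adjusted p = 0.012), both lower. On this scale 71.7% of all 15279 genes were called, and the median over all genes was -0.49. Cpe and Cpd themselves had LFCs of 0.02 and -0.02 in adult DH. Furin (-0.37), Pcsk2 (-0.35) and Pcsk7 (-0.36) were also lower relative to Avp. They narrowly missed the threshold (limma adjusted p = 0.0505, 0.0561 and 0.058). Pcsk1 and Pam, at 0.29 and 0.15 relative to Avp, were not called (limma adjusted p = 0.121 and 0.409). Of all genes called relative to Avp 83 were higher and 10877 lower, and relative to Oxt, which was not called itself in adult DH (LFC 0.17, limma adjusted p = 0.187), 1025 were called and 185 of them were higher. Pcsk1 (0.59, limma adjusted p = 7.34e-05) and Pam (0.45, limma adjusted p = 0.00381) were called higher relative to Oxt, and Cpe and Cpd were not called. The Avp-relative calls rested on single rats. Both were lost without adult DH replicate 3 (limma adjusted p = 0.0616 for Cpe and 0.0558 for Cpd) and that of Cpe was also lost without adult DH replicate 2 (0.0593), whereas 5 genes were called if adult DH replicate 1, adult EH replicate 1 or adult EH replicate 6 was dropped, and 3 if adult EH replicate 2 was.

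In aged DH 0 of the 9 genes were called relative to Avp, where 0.58% of 15345 genes were. In ageing 0 were called, where 1.18% of 15368 genes were. Avp itself was not called in either, with an LFC of 0.21 in aged DH and 0.28 in ageing, and its spread between rats was large. The 95% interval of Pam relative to Avp was from -0.25 to 0.60 in aged DH and from -0.45 to 0.44 in ageing.

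The rest of the processing and secretory route was described with a list of 52 genes. In adult DH 11 were called higher and 0 lower of the 47 entries tested, with a median LFC of 0.06. In aged DH it was 10 higher and 2 lower of 49, with a median of 0.04, and in ageing 6 higher and 3 lower of 49, with a median of 0.04. Over all genes, 1172 were called higher and 762 lower of 15280 in adult DH. The counts over all genes were 621 and 498 of 15346 in aged DH, and 414 and 507 of 15369 in ageing. For the difference between the ages 0 of 48 were called, and 0 of all 15326 genes.

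Among the precursors that these enzymes cut, 4 of 12 tested were called higher in adult DH, where 12.7% of all genes were called in either direction. Vgf, the precursor of several secreted peptides, had an LFC of 1.76, Pdyn, which encodes prodynorphin, 1.04, and Crh, for corticotropin-releasing hormone, 1.04, beside the 0.48 of Avp. Pdyn rose from 13183 ± 2009 to 26931 ± 1757 normalized counts (SD, n = 5). In aged DH, where 7.29% of all genes were called in either direction, Vgf (1.02), Crh (0.99) and Pdyn (0.58) were called higher. Cck (-0.48) and Adcyap1 (-0.47), for cholecystokinin and PACAP, were called lower. The forebrain markers given above were lower in the same aged DH rats, and their part in this was not tested. In ageing, where 5.99% of all genes were called in either direction, Pdyn (0.78), Cartpt (0.55) and Vgf (0.43) were called higher. Oxt was not called in any of the 3, with LFCs of 0.17, 0.14 and 0.26.

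Among 6 genes of the granule matrix and membrane, 4 were called higher in adult DH, beside 12.7% of all genes called in either direction. These were Scg2 (LFC 0.96), Ptprn (0.86), Scg3 (0.31) and Ptprn2 (0.15). Scg2 encodes secretogranin II, a matrix protein that the convertases also cut, and it rose from 14281 ± 831 to 27925 ± 4442 normalized counts (SD, n = 5). Scg2, Ptprn and Scg3 were called higher in aged DH too (0.62, 0.49 and 0.19) and in ageing (0.21, 0.28 and 0.16). Over all genes 7.29% were called in aged DH and 5.99% in ageing, in either direction. Chga and Chgb, the chromogranins, were not called in any comparison, with LFCs from -0.14 to 0.13.

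Scg5 encodes 7B2, the chaperone of Pcsk2. Its LFC was -0.07 in adult DH (limma adjusted p = 0.0771), -0.02 in aged DH and 0.09 in ageing, and it was called in none of them. Pcsk1n, which encodes the Pcsk1 inhibitor proSAAS, stands under 2 identifiers. None of them had enough counts for testing in adult DH. In aged DH (LFC -0.37) and ageing (0.17) 1 was tested, and it was not called. Over the 2 identifiers the mean was 3.72 normalized counts in adult DH rats and 6.69 in aged EH rats of the ageing table. Whether these low counts capture the full expression of the gene was not tested. The other convertases Pcsk4, Pcsk6 and Mbtps1 were not called in any comparison.

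Cyb561, the granule membrane cytochrome that keeps ascorbate reduced for Pam, was the 1 gene of 6 for the amidation cofactors and the second cyclase that was called. Its LFC was 0.24 in adult DH (limma adjusted p = 0.00446) and 0.23 in aged DH (limma adjusted p = 0.0098). The copper transporters Slc31a1 and Atp7a, the copper chaperone Atox1 and the ascorbate transporter Slc23a2 were not called, nor was Qpctl. Ctsl, a cysteine protease that can cut precursors in place of the convertases, rose in adult DH (0.43) and aged DH (0.35), and its partner aminopeptidase Rnpep was not called. Among the peptidases that break peptides down, Ece1 rose in both (0.23 and 0.23) and Prcp in aged DH (0.23). The matrix-associated carboxypeptidase relatives Cpz, Cpxm1 and Cpxm2 fell in ageing, with LFCs of -0.67, -0.80 and -1.34. None of the 5 signal peptidase subunits was called.

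**Figure D4:**
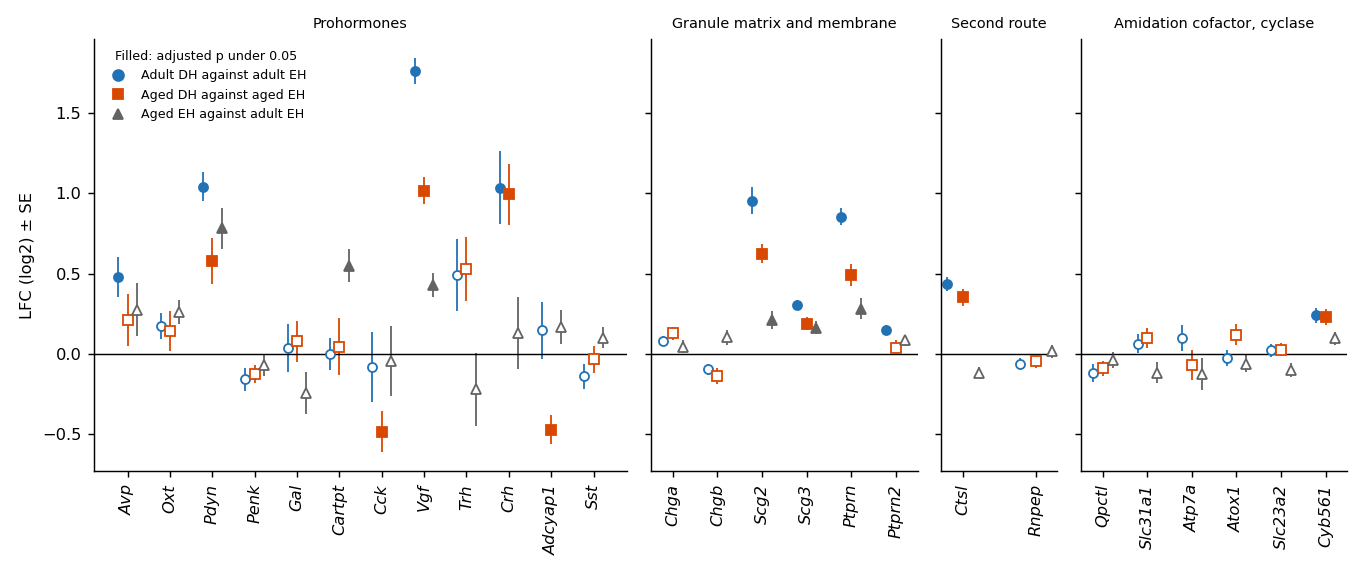
LFC (log2, vertical axis) with SE for precursors, granule proteins, the second cleavage route and the amidation cofactor genes in adult DH (circles), aged DH (squares) and ageing (triangles), filled where the adjusted p was under 0.05. Vgf in adult DH is the highest value, at 1.76, and Cyb561 is the filled gene of the last group, in both DH comparisons.

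The genes most like Pam, the gene of the 9 with the lowest adjusted p in adult DH, were sought among 13099 genes by the Euclidean distance between their values in the 20 rats, each value less the EH mean of its table on the log2 scale. The nearest was Vat1l, at a distance of 0.329, followed by Atf4 (0.379) and Nucb1 (0.391). Vat1l had LFCs of 0.55, 0.31 and 0.25 in adult DH, aged DH and ageing, Atf4 0.52, 0.43 and 0.27, and Nucb1 0.51, 0.35 and 0.21. Atf4 encodes a transcription factor of the cellular stress response and Nucb1 a calcium-binding protein of the Golgi.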

How the data were processed

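Libraries of 20 rats were supplied as 3 tables of 10. The values are a signal that the authors deposited after alignment with STAR to Rn6, counting with featureCounts and division of each count by a DESeq2 size factor that was set for the library within that table. The versions of STAR and featureCounts are not stated in the labels or the methods. The deposited fold changes, p-values and adjusted p-values are the authors' own and were not used. All 30 per-sample columns were used.

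Log2 of the normalized count plus 1 was tested with limma 3.58.1 in R 4.3.3 (eBayes with trend, two-sided) in genes averaging 10 or more normalized counts. The Benjamini-Hochberg adjustment covered all of these genes, at a threshold of 0.05. The difference between the ages took each rat from the DH table of its age. Ratios of Pcsk1 to Pcsk2 were compared with exact permutation tests (scipy 1.17.1). Reads recovered from the adult DH table, whole within 0.1 read, were also tested with edgeR 4.0.16 and DESeq2 1.42.0. Reads on genes were not recovered for aged libraries. Scripts were tested on simulated data. Figures used matplotlib 3.10.9.

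All 9 genes, the other listed genes called in any comparison, most markers and Avp, Oxt, Scg5, Pcsk1n, Chga, Chgb, Scg2 and Vgf were named, with the 3 genes most like Pam. Some listed genes are not reported here. The members and lists were chosen with earlier results of these data known. The methods describe aged rats caged in groups, with DH assigned by cage, and which rats shared a cage is not given. Each rat was therefore treated as independent, and p-values would be too small if cage mates were alike. Levels were not compared between genes, since transcript lengths were not used here.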

Additional observations from a re-analysis of the deposited data

Results flagged for a closer look

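Among 36 groups of 5 rats, made of 9 genes in 4 groups, 2 held a rat that lay apart from the others by Dixon's ratio at its 95% critical value. Chance flags about 1 in 20 groups. Pam in adult EH replicate 2 stood at 17330 normalized counts, below the other 4 rats, with a gap of 0.828 of the group's range. With each rat left out in turn, the LFC of Pam in adult DH was 0.59 to 0.65 and stayed called, and in ageing Pam lost its call without this rat (limma adjusted p = 0.0698). Pcsk2 in adult EH replicate 6 stood at 4267, below the other 4, with a gap of 0.711 of the range. The LFC of Pcsk2 in ageing was 0.14 without it, with a limma adjusted p of 0.0803. The causes of these low values were not tested.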

How the results depend on the processing

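Pam, Pcsk1 and Pcsk5 in adult DH and Pam and Pcsk2 in aged DH kept their direction and call under every alternative tried, which were a pseudocount of 10, genes with a mean above 0 or of at least 50, size factors over 20 libraries, TMM factors, eBayes without trend, the replicate block and each rat left out. In adult DH edgeR and DESeq2 each called 4 of the 9 genes, among 1931 and 2220 of all. The 3 ageing calls were the least stable. Without trend 0 of the 9 were called, 516 genes of all against 921, and Pcsk2 in adult DH lost its call (limma adjusted p = 0.0566), while the call count over all genes in aged DH fell from 1119 to 671. With each rat left out, the number of the 9 called was 0 to 3 in ageing, 3 to 4 in adult DH, 2 to 3 in aged DH, 1 to 2 for aged DH against adult DH and 0 to 5 relative to Avp in adult DH, and over all genes 594 to 906 in ageing and 678 to 1186 in aged DH. The log2 Pcsk1 to Pcsk2 difference in ageing was then 0.24 to 0.39. Relative to Oxt in place of Avp, 5 of the 9 were called in ageing (Pcsk5, Furin, Cpe, Cpd and Qpct, all lower), among 6467 genes of all against 181. Over all genes the count relative to Oxt was 1025 against 10960 in adult DH and 165 against 89 in aged DH. Relative to the sum of Avp and Oxt it was 1416 in ageing, 10345 in adult DH and 181 in aged DH. In adult DH 3 of the 9 were called relative to that sum, among them Pcsk1, which was higher (0.39, limma adjusted p = 0.0106). With each rat left out the counts relative to Avp were 83 to 494 in ageing, 5894 to 12290 in adult DH and 49 to 115 in aged DH. Relative to Oxt the LFC turned to 0.00881 for Pam in ageing, to 0.14 for Pcsk5 and 0.0369 for Qpct in adult DH and to 0.0248 for Pcsk5 in aged DH. Each of these values is the LFC of the gene less that of Oxt, so the turns follow from the exchange of Avp for Oxt.

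The correlations of same-numbered rats' deviations ran from -0.083 to 0.162. They showed no pairing by the replicate numbers of the labels, though low correlations cannot establish that the rats were unpaired. With the replicate block 3 of the 9 were called in ageing (824 genes of all), 3 in adult DH (987 against 1934), 3 in aged DH (653 against 1119) and 0 for the difference between the ages (1). The block lost Pcsk2 in adult DH (0.11, limma adjusted p = 0.142) and added Pcsk1 in aged DH (0.40, limma adjusted p = 0.0317). The LFC of Cpd turned to 0.056 in adult DH, -0.0089 in aged DH and -0.0649 for the difference between the ages.

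Values near 0 also changed sign without a single rat. Cpd ran from -0.0688 to 0.0291 in adult DH, -0.0273 to 0.0562 in aged DH, -0.00925 to 0.052 for aged DH against adult DH, -0.0618 to 0.0367 in ageing and -0.0219 to 0.0761 for the difference between the ages. Cpe ran from -0.0266 to 0.00366 in ageing, Pcsk7 from -0.0452 to 0.0291 in aged DH and -0.0359 to 0.0385 in ageing, Qpct from -0.20 to 0.00863 in ageing and -0.20 to 0.0161 for the difference, and Pam from -0.0108 to 0.0615 for aged DH against adult DH. Relative to Avp, Pam ran from -0.0692 to 0.10 in ageing, Pcsk2 from -0.21 to 0.00655 in ageing and -0.0646 to 0.13 in aged DH, Pcsk5 from -0.21 to 0.075 in aged DH and Qpct from -0.27 to 0.0729 in aged DH.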
